A study of Homo sapiens with 12 samples.

Results

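The integrin and laminin genes were described across 4 human cancer cell lines and 3 conditions. They were chosen by gene name alone, as the rows of the count table named for integrin alpha subunits, integrin beta subunits 1 to 8 and laminin alpha, beta and gamma chains. This gave 38 genes, 26 integrins and 12 laminins, of 57187 genes in the table. Integrins are adhesion receptors in the cell membrane, each made of an alpha and a beta subunit, and the pairing sets which matrix protein or cell a receptor can hold. Laminins are secreted trimers of an alpha, a beta and a gamma chain and are a main component of the basement membrane, the sheet on which epithelial cells sit. Epithelial cells anchor to it through integrins, among them alpha6 beta4 in hemidesmosomes.

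The lines came from breast cancer (MDA-MB-231 and HCC1954) and from ovarian cancer (SKOV3 and OVCAR8, spelled OVAR-8 in the sample labels). For every line there was a single control library (EV), a single library after transfection with *SIVA-WT* and a single one after transfection with *SIVA-D160N*, a point mutant of SIVA, a protein known for promoting apoptosis. The labels call the controls parental and untreated, while the study's supplement names them empty vector cells. The transfectants were stable polyclonal cultures, selected with 0.8 mg/mL hygromycin after transfection of 1 µg of linearized vector. Conditions were compared over the 4 lines as replicates, and values within 1 line are unreplicated. The 3 libraries of a line served as samples of the line, although they differ in condition, so that an SD over them also holds any effect of the condition.

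Library totals ran from 35791455 to 45890398 counts, and a gene with no count is limited to between 0.0663 and 0.0850 CPM, a gene's count scaled to a common, TMM-normalized library size (at a limit of 3 counts, for counting error only). No pair among 66 pairs of libraries was identical. *SIVA1* was at 28.1, 66.1 and 52.4 CPM in the EV libraries of MDA-MB-231, OVCAR8 and SKOV3 and at 68.1 to 176 CPM in their transfectants. The HCC1954 EV library held 0 counts of it, against 37.8 and 26.3 CPM in the HCC1954 transfectants, and stands apart from the other controls in this. Markers of tissue did not follow the labels throughout. The 3 ovarian markers *PAX8*, *WT1* and *MUC16* summed to 230 to 246 CPM in SKOV3, 67.4 to 83.0 CPM in OVCAR8, 75.6 to 123 CPM in HCC1954 and 2.48 to 3.45 CPM in MDA-MB-231. *PAX8* lay between 60.9 and 243 CPM in the ovarian lines and between 1.54 and 3.43 CPM in the breast lines, while *MUC16* was at 65.4 to 114 CPM in HCC1954 and at most 1.57 CPM in any library of another line. The 2 breast markers *GATA3* and *TFAP2A* summed to 121 to 132 CPM in HCC1954, 41.5 to 46.4 CPM in OVCAR8, 38.2 to 45.3 CPM in SKOV3 and 5.88 to 8.59 CPM in MDA-MB-231, below both ovarian lines. The 5 epithelial markers *CDH1*, *EPCAM*, *KRT8*, *KRT18* and *KRT19* summed to 5693 to 7467 CPM in HCC1954, 2847 to 3491 CPM in OVCAR8, 791 to 877 CPM in SKOV3 and 602 to 671 CPM in MDA-MB-231. *CDH1*, the epithelial cadherin, was at most 0.491 CPM outside HCC1954.

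Promoter sequences are shown for 4 members described below. They are the 250 bases before a start site in RefSeq (GRCh38.p14), each written along the gene's own strand, and 26 of the 38 members had such an entry, with 33 start sites. *LAMA3* and *LAMB3* encode chains of the epithelial laminin. Theirs were the member windows that held the AP-1 motif TGACTCA or its reverse complement TGAGTCA, marked in capitals, and were shown for that reason. Both windows lie inside the annotated gene, before an internal start site.
LAMA3 (chr18:23872770-23873019, plus strand): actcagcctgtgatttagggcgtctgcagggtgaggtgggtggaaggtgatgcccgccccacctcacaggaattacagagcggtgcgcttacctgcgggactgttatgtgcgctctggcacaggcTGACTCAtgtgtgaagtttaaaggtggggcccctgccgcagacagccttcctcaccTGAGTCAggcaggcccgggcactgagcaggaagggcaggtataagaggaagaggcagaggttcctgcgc
LAMB3 (chr1:209651375-209651624, minus strand): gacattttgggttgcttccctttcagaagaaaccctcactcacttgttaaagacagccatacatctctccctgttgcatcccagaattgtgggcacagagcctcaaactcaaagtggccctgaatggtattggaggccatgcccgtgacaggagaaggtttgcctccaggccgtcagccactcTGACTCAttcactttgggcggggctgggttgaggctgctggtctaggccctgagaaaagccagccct
*ITGB1*, the most widely shared beta subunit, with a small span between lines, is shown beside *ITGB6*, which was nearly absent from OVCAR8. Capitals mark each CG in *ITGB1* and the E-box CACCTG in *ITGB6*.
ITGB1 (chr10:32958231-32958480, minus strand): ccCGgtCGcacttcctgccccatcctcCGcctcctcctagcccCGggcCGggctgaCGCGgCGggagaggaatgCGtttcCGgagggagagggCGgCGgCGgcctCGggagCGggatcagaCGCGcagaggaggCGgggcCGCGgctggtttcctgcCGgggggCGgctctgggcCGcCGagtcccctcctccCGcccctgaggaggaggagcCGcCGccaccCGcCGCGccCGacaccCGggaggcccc
ITGB6 (chr2:160200273-160200522, minus strand): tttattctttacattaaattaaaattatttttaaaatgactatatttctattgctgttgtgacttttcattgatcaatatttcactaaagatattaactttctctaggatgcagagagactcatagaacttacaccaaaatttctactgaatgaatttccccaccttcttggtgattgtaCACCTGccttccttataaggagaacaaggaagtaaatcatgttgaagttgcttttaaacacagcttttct

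The AP-1 motif began at positions -125 and -69 of the *LAMA3* window and at -67 of the *LAMB3* window, counted back from the start site. It was in 2 of the 33 member windows (6.06%) and in 4.20% of all 35116 windows, both strands counted. The E-box CACCTG or CAGGTG was in 8 member windows (24.2%) and in 17.5% of all. It began at -70 in *ITGB6* and at -73 in *LAMA3*, where it overlaps the AP-1 match at -69. The GC box GGGCGG or CCGCCC was in 17 member windows (51.5%) and in 42.6% of all. The *ITGB1* window shown held 32 CG and the *ITGB6* window 0, against a median of 11 over all windows. *ITGB1* had another start site, whose window held 4 CG, and the richer window was the one shown. The 15 members with a window above that median had line means of log2 CPM that spanned a median of 2.51, and the 11 at or below it a median of 3.74. The 15 include *ITGA8*, with a span of 0 because it had no counts. Single members went the other way from the pair shown: *ITGA4*, with 25 CG, spanned 9.22, and *LAMA2*, with 9 CG, spanned 0.507. These are descriptions of the letters in the windows, and no binding was measured.

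Across the libraries, 29 members had a count in all 12, and *ITGA8*, the alpha subunit of the nephronectin receptor, had 0 counts in every one. A further 7 stayed under 100 counts in each library: *ITGA9*, *ITGA11*, *ITGAD*, *ITGAM*, *ITGB7*, *LAMA4* and *LAMB4*. Integrins took 0.150% to 0.463% of a library's counts and laminins 0.101% to 0.221%. Per kilobase of coding sequence, the highest means over the lines were those of *ITGB1* (313 CPM per kb), *ITGA3* (262 CPM per kb), *LAMC1* (89.6 CPM per kb), *LAMB3* (87.7 CPM per kb) and *ITGA6* (67.7 CPM per kb). HCC1954 had 29 members at a mean of at least 1 CPM, OVCAR8 26, and MDA-MB-231 and SKOV3 24 each.

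**Figure D1:**
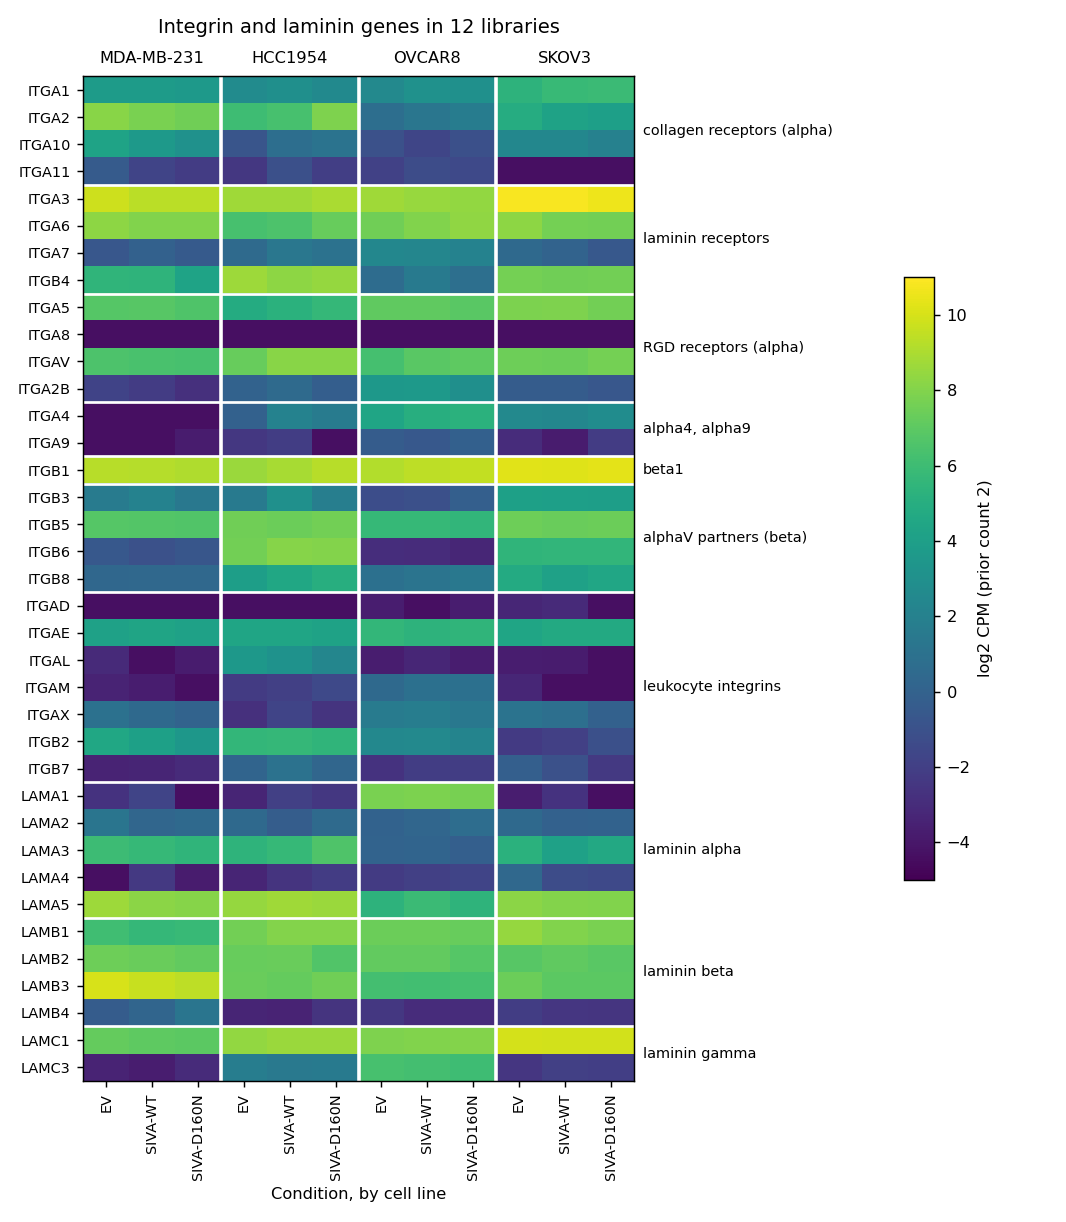
Level of integrin and laminin genes (rows) in each of the 12 libraries (columns, by cell line), as log2 CPM with a prior count of 2. The columns of 1 line resemble each other, while *LAMA1* stands out in OVCAR8, *ITGAL* in HCC1954 and *ITGB6* in HCC1954 and SKOV3.

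The lines differed in nearly every member. Of 36 members that passed the filter on low counts in this comparison, 35 differed among the 4 lines at an FDR (Benjamini-Hochberg adjusted p of edgeR's quasi-likelihood test) under 0.05, to be read against 94.7% of all genes tested. *LAMA2*, the laminin alpha chain of muscle, was the exception (FDR = 0.26), with 0.758 to 2.28 CPM in all libraries. *ITGA8* and *ITGAD* did not pass the filter. In pairs of lines, 25 members differed between HCC1954 and MDA-MB-231 (69.7% of all genes), 26 between OVCAR8 and MDA-MB-231 (63.1%) and 26 between SKOV3 and MDA-MB-231 (66.5%). Further, 29 differed between OVCAR8 and HCC1954 (71%), 25 between SKOV3 and HCC1954 (69.2%) and 30 between SKOV3 and OVCAR8 (69.6%). In bulk RNA, more cells with a transcript and more transcript per cell cannot be told apart.

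The laminin alpha chains set OVCAR8 apart. *LAMA1*, the alpha chain of the laminin of early embryos, on chr18:6941742-7117797, was at 218, 233 and 206 CPM in the EV, *SIVA-WT* and *SIVA-D160N* libraries of OVCAR8. In the other 9 libraries it was at 0 to 0.253 CPM, that is 10 counts or fewer (FDR = 1.71e-11 for OVCAR8 against HCC1954, the line next in order). Neighbors among HCC1954, MDA-MB-231 and SKOV3 did not pass the test (FDR = 0.899 and 0.261). *LAMA5*, the alpha chain of most adult epithelial basement membranes, was instead lowest in OVCAR8, at 41.3, 60.4 and 43.1 CPM. It was at 399, 296 and 273 CPM in MDA-MB-231, at 358, 427 and 384 CPM in HCC1954 and at 295, 258 and 255 CPM in SKOV3. OVCAR8 lay 5.58-fold below SKOV3 (FDR = 8.39e-08), and HCC1954 lay 1.45-fold above SKOV3 (FDR = 0.00935), while the range of MDA-MB-231 overlapped with both.

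*LAMA3*, the alpha chain of the epithelial laminin, was also low in OVCAR8, at 1.038, 1.07 and 0.834 CPM. It was at 61.7, 52.6 and 43.99 CPM in MDA-MB-231, at 43.1, 53.3 and 97.3 CPM in HCC1954 and at 36.6, 17.8 and 25.1 CPM in SKOV3 (SKOV3 over OVCAR8, 27.0-fold, FDR = 4.1e-07). Per kilobase, *LAMA1* made up 83.8% ± 2.06 (SD, n = 3) of the alpha chain transcripts of OVCAR8. *LAMA5* made up 84.1% ± 0.921 in MDA-MB-231, 84.4% ± 5.78 in HCC1954 and 89.6% ± 2.72 in SKOV3. *LAMA3* made up most of the rest in those 3 lines (9.59% to 15.3%). *LAMA2* and *LAMA4*, a chain of blood vessels, each had a mean share under 1% in all 4 lines.

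The beta chains set MDA-MB-231 apart. *LAMB3*, the beta chain of the epithelial laminin, was at 1055, 819 and 689 CPM in MDA-MB-231, against 164, 146 and 184 CPM in HCC1954, 171, 127 and 123 CPM in SKOV3 and 74.4, 72.1 and 76.1 CPM in OVCAR8. MDA-MB-231 lay 5.18-fold above HCC1954 (FDR = 3.63e-08), HCC1954 and SKOV3 overlapped (FDR = 0.132), and SKOV3 lay 1.89-fold above OVCAR8 (FDR = 0.000114). Per kilobase, *LAMB3* took 85.4% ± 1.30 (SD, n = 3) of the beta chains of MDA-MB-231 and 27.7% to 40.0% in the other lines, where *LAMB1*, a beta chain of most tissues, took 37.7% to 44.8%. *LAMB2*, the beta chain of kidney and nerve-muscle basement membranes, had line means of 122 to 162 CPM, and MDA-MB-231 lay 1.33-fold above SKOV3 (FDR = 0.0115) and 1.23-fold above OVCAR8 (FDR = 0.0414) without overlap, while the other 4 pairs of lines did not pass the test. *LAMB4* stayed at or below 2.26 CPM.

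Among the gamma chains, *LAMC1*, the chain of most laminins, was at 1005, 942 and 976 CPM in SKOV3 and 2.62-fold lower in HCC1954, at 346, 386 and 383 CPM (FDR = 1.76e-07). It was at 235, 252 and 259 CPM in OVCAR8 and at 150.0, 132 and 125 CPM in MDA-MB-231, and each step in this order differed. *LAMC3*, a less common gamma chain, was at 80.1, 74.5 and 66.4 CPM in OVCAR8 and at 3.42, 2.67 and 2.95 CPM in HCC1954 (24.5-fold, FDR = 1.27e-11). The other 6 libraries had 9 counts of it or fewer.

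**Figure D2:**
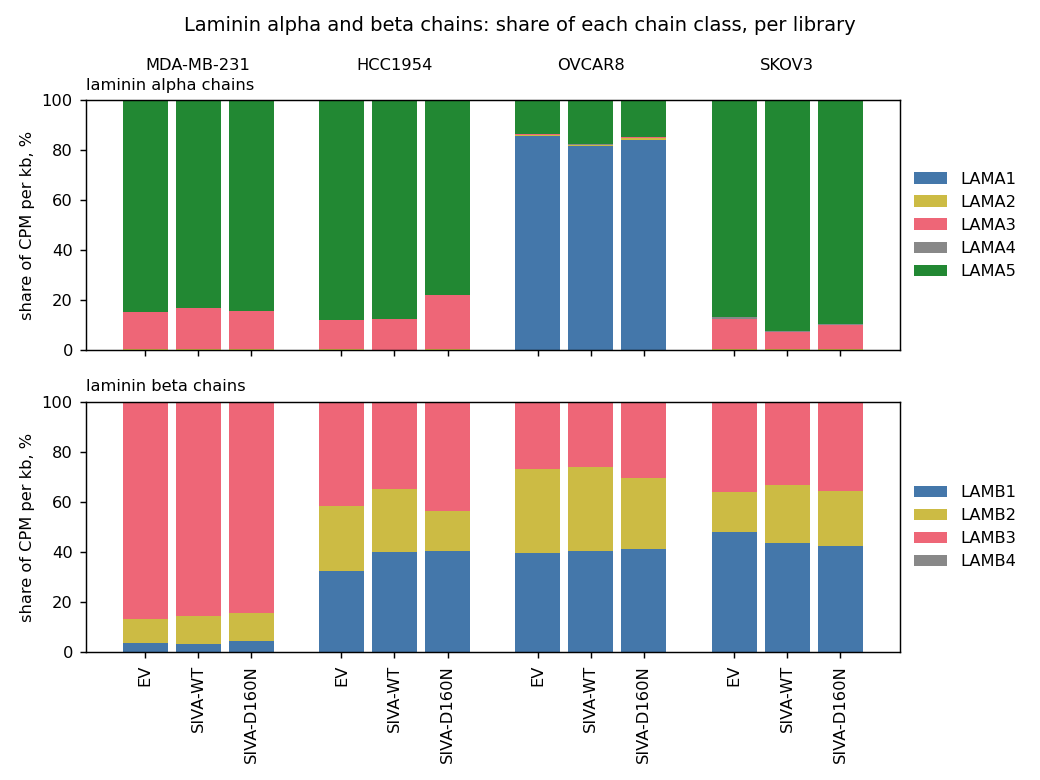
Share of each laminin alpha chain (top) and beta chain (bottom) in its class, in percent of the summed CPM per kilobase of coding sequence, in each library. *LAMA1* fills most of the alpha bars of OVCAR8 (83.8% on average), and *LAMB3* most of the beta bars of MDA-MB-231 (85.4%).

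The laminin receptor subunits followed another order. *ITGA3*, whose alpha3 beta1 receptor binds the laminins with *LAMA3* or *LAMA5*, had the highest mean CPM of all members. It was at 1826, 1853 and 1566 CPM in SKOV3, at 873, 656 and 649 CPM in MDA-MB-231, at 415, 420 and 503 CPM in HCC1954 and at 430, 376 and 340.0 CPM in OVCAR8. SKOV3 lay 2.41-fold above MDA-MB-231 (FDR = 5.26e-06), while HCC1954 and OVCAR8 overlapped (FDR = 0.123). *ITGA6*, which pairs with beta1 or beta4, was at 307, 249.6 and 252 CPM in MDA-MB-231, at 188, 255 and 319.7 CPM in OVCAR8, at 314, 204 and 196 CPM in SKOV3 and at 79.9, 94.1 and 156 CPM in HCC1954. Of its steps, that from SKOV3 to HCC1954 differed (2.16-fold, FDR = 0.00185).

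*ITGB4*, the beta subunit of hemidesmosomes, was at 407, 317 and 349 CPM in HCC1954, at 199, 187 and 195 CPM in SKOV3, at 44.5, 42.7 and 19.6 CPM in MDA-MB-231 and at 1.53, 2.80 and 1.72 CPM in OVCAR8. The lines did not overlap, and each step differed (FDR = 0.00396, 2.03e-06 and 1.38e-07). OVCAR8 thus had *ITGA6* in the range of MDA-MB-231 with little transcript of its hemidesmosome partner. *ITGA7*, the alpha subunit of muscle, stayed at or below 5.24 CPM, highest in OVCAR8.

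Of the beta subunits, *ITGB1* had the highest mean CPM in every line: 1268, 1195 and 1285 CPM in SKOV3, 568, 668 and 750.0 CPM in OVCAR8, 633, 588 and 558 CPM in MDA-MB-231 and 382, 490.2 and 614 CPM in HCC1954. In the HCC1954 EV library it was below *ITGB4* (407 CPM). SKOV3 lay 1.89-fold above OVCAR8 (FDR = 9.34e-05), and the ranges of the other 3 lines overlapped, with OVCAR8 1.34-fold above HCC1954 (FDR = 0.0192). Per kilobase it took 91.6% ± 1.46 (SD, n = 3) of the beta transcripts in OVCAR8, 80.5% ± 1.12 in MDA-MB-231 and 78.6% ± 0.400 in SKOV3. HCC1954, with 42.3% ± 4.78, had more of its beta transcripts in *ITGB6* (21.1%), *ITGB5* (15.9%) and *ITGB4* (13.8%).

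The lines differed in which led among *ITGB3*, *ITGB5*, *ITGB6* and *ITGB8*, beta partners of alphaV in receptors for vitronectin, fibronectin and latent TGF-beta. *ITGB1*, which was above each of them in every line, was not counted among these partners. *ITGB6*, the epithelial partner, was at 195, 274 and 257 CPM in HCC1954, at 44.9, 46.9 and 46.6 CPM in SKOV3 and at 0.619, 0.429 and 0.558 CPM in MDA-MB-231, and OVCAR8 had 2 or 3 counts of it in each library. SKOV3 lay 86.2-fold above MDA-MB-231 (FDR = 1.67e-11), and all 3 steps differed. *ITGB5* took 95.3% (MDA-MB-231), 94.5% (OVCAR8), 66.2% (SKOV3) and 40.2% (HCC1954) of the transcripts of these alphaV partners, without *ITGB1*, per kilobase. In HCC1954 *ITGB6* took 53.4%. *ITGB8*, which activates latent TGF-beta, was at 15.7 to 32.9 CPM in HCC1954 and at 17.8 to 27.2 CPM in SKOV3 (FDR = 0.846), and at 2.58 CPM or less in the other lines. *ITGAV* itself had line means of 85.2 to 246 CPM.

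The collagen receptor *ITGA2* was at 289, 218 and 182 CPM in MDA-MB-231, at 65.7, 81.8 and 241 CPM in HCC1954, at 30.1, 18.8 and 16.1 CPM in SKOV3 and at 1.64, 2.36 and 3.18 CPM in OVCAR8. The breast lines overlapped (FDR = 0.058), while HCC1954 lay 5.98-fold above SKOV3 (FDR = 0.000281) and SKOV3 9.06-fold above OVCAR8 (FDR = 9.1e-05). *ITGA1*, the other common collagen receptor, was highest in SKOV3, at 40.7, 54.2 and 60.1 CPM. Per kilobase *ITGA1* was 65.8% and 70.8% of the collagen receptor alpha transcripts in SKOV3 and OVCAR8, and *ITGA2* was 89.5% and 92.0% in MDA-MB-231 and HCC1954. By share within a line, the breast and the ovarian lines thus led with different collagen receptors, and with 2 lines each, tissue and line cannot be told apart. The level of *ITGA1* did not divide the lines this way. MDA-MB-231 lay 1.78-fold above OVCAR8 (FDR = 0.000682), and OVCAR8 and HCC1954 overlapped (FDR = 0.628). *ITGA10*, the cartilage collagen receptor, was at 19.1, 12.4 and 8.496 CPM in MDA-MB-231, at 5.20, 5.32 and 4.10 CPM in SKOV3, at 0.522, 1.65 and 2.04 CPM in HCC1954 and at 0.437, 0.262 and 0.417 CPM in OVCAR8. *ITGA11* had at most 32 counts in a library, and 0 in all 3 libraries of SKOV3.

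*ITGA5*, the fibronectin receptor, was highest in SKOV3 (218 ± 24.6 CPM) and lowest in HCC1954 (39.0 ± 11.02 CPM, SD, n = 3). *ITGA4*, which binds VCAM1 and fibronectin and is best known from lymphocytes, had 0 counts in all 3 libraries of MDA-MB-231. It was at 21.6, 32.4 and 37.1 CPM in OVCAR8, at 5.78, 5.21 and 6.83 CPM in SKOV3 and at 0.950, 4.20 and 3.14 CPM in HCC1954. Against a floor of 3 counts per library, OVCAR8 was at least 400.4-fold higher than MDA-MB-231. *ITGA9* stayed at or below 0.886 CPM. *ITGA2B*, the platelet fibrinogen receptor subunit, was at 11.3, 12.3 and 7.79 CPM in OVCAR8, at 0.974, 1.38 and 0.793 CPM in HCC1954, at 0.739, 0.738 and 0.590 CPM in SKOV3 and at 0.243, 0.177 and 0.0971 CPM in MDA-MB-231. The platelet markers *PF4*, *GP9* and *PPBP* summed to at most 0.0459 CPM in any library.

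Among the leukocyte integrins, HCC1954 had both subunits of the leukocyte receptor LFA-1. *ITGAL* was at 11.5, 8.68 and 5.10 CPM in HCC1954 and had 3 counts or fewer in each of the other 9 libraries (FDR = 3.22e-13 for HCC1954 against OVCAR8). *ITGB2* was at 47.9, 50.3 and 44.2 CPM in HCC1954, at 23.5, 17.1 and 11.1 CPM in MDA-MB-231, at 5.54, 5.68 and 4.67 CPM in OVCAR8 and at 0.159, 0.201 and 0.418 CPM in SKOV3, with no overlap between lines. The 5 leukocyte markers *PTPRC*, *CD3E*, *CD14*, *LYZ* and *SPI1* summed to 0.566 to 0.873 CPM in HCC1954, 0.278 to 0.376 CPM in MDA-MB-231, 0.0782 to 0.137 CPM in OVCAR8 and 0.172 to 0.447 CPM in SKOV3. *PTPRC*, the marker of all leukocytes, was at 0 in the 9 libraries of the other lines and at most 0.620 CPM in HCC1954. The 3 endothelial markers (*PECAM1*, *CDH5* and *VWF*) summed to 45.9 to 90.6 CPM in HCC1954 and to at most 4.04 CPM elsewhere, and their part in these levels was not tested.

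*ITGAX* and *ITGAM*, alpha partners of beta2 in myeloid cells, were both highest in OVCAR8, with 2.63 to 3.33 CPM of *ITGAX* and 1.34 to 1.83 CPM of *ITGAM*. *ITGAD* had at most 3 counts. *ITGAE*, which pairs with beta7, was at 17.7 to 49.1 CPM in all 12 libraries, while *ITGB7* stayed at or below 2.02 CPM. *ITGAE* overlaps *HASPIN* on the opposite strand, and whether strand was used in counting is not given in the sources used here. In all, 28 of the 38 members overlap an annotated gene on the opposite strand.

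**Figure D3:**
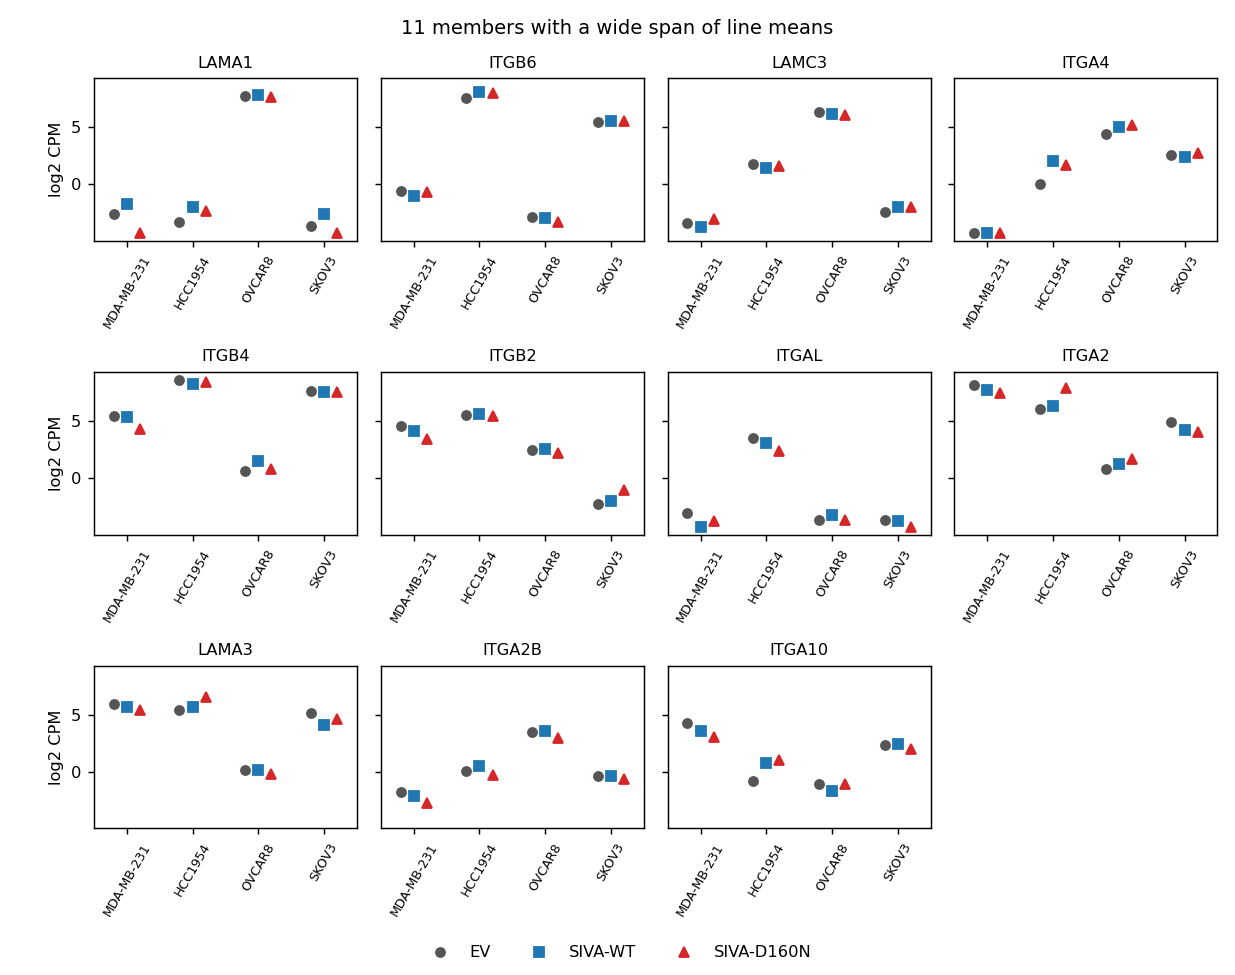
Level (log2 CPM with a prior count of 2) in each library of 11 members with a wide span of line means, by cell line, with EV as circles, *SIVA-WT* as squares and *SIVA-D160N* as triangles. Line means span up to 11.3, for *LAMA1*, whose widest range within a line is 2.60 (MDA-MB-231, at 0 to 10 counts).

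The condition comparisons asked whether cells with *SIVA-D160N* or *SIVA-WT* differ in these genes from EV cells. No member passed the test in any of them. In edgeR's quasi-likelihood test with a term for the line, 33 of the 38 members passed the filter on low counts, all but *ITGA8*, *ITGA9*, *ITGAD*, *ITGAL* and *LAMB4*. In *SIVA-D160N* vs EV, 0 of the 33 passed both thresholds (an FDR under 0.05, and 1.5 or more on the log2 scale in either direction), against 32 of 17211 genes (0.186%). In *SIVA-WT* vs EV it was 0 members and 1 gene (0.00581%). Between the transfectants, *SIVA-D160N* vs *SIVA-WT*, it was 0 members and 0 genes (0%). DESeq2 and limma-voom also called 0 members in each. At an unadjusted p under 0.05 there were 5 members in *SIVA-D160N* vs EV (16.4% of all genes), 1 for *SIVA-WT* over EV (3.46%) and 3 between the transfectants (8.33%), and without the HCC1954 EV library 10 (13.3%), 3 (4.25%) and 5 (8.27%). The median log2 fold change of the members was -0.10, -0.01 and -0.05 in the same order, and -0.01, -0.01 and -0.0047 over all genes. The comparisons with EV share the EV libraries.

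The members with the smallest p in *SIVA-D160N* vs EV were *ITGAX*, *LAMB2*, *ITGA2B*, *ITGA4* and *ITGAV*, with FDR values of 0.189, 0.191, 0.235, 0.270 and 0.295. *ITGAX* was at 1.92, 1.31 and 0.995 CPM in the EV, *SIVA-WT* and *SIVA-D160N* libraries of MDA-MB-231, at 3.17, 3.33 and 2.63 CPM in OVCAR8, at 2.06, 1.77 and 0.934 CPM in SKOV3 and at 0.0950, 0.253 and 0.113 CPM in HCC1954. It was lower with *SIVA-D160N* than in EV in 3 of 4 lines (log2 fold change -0.69, SE 0.23) and lower than with *SIVA-WT* in 4 of 4 (-0.55, SE 0.23, FDR = 0.581). In HCC1954 it had 4 to 11 counts per library. *LAMB2* was at 179, 163 and 143 CPM in MDA-MB-231, at 156, 164 and 102 CPM in HCC1954, at 142, 141 and 111 CPM in OVCAR8 and at 114, 134 and 117 CPM in SKOV3. Its log2 fold change over EV was -0.31 (SE 0.11), with SKOV3 the line that did not share the direction, and over *SIVA-WT* it was -0.35 (SE 0.11, FDR = 0.470) and negative in 4 of 4 lines.

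*ITGA2B*, whose values stand above, was lower with *SIVA-D160N* than in EV in 4 of 4 lines (-0.49, SE 0.19) and than with *SIVA-WT* in 4 of 4 lines (-0.64, SE 0.19, FDR = 0.462). It had 4 to 11 counts in the libraries of MDA-MB-231, 24 to 33 in SKOV3 and 28 to 60 in HCC1954. *ITGA4* was higher with *SIVA-D160N* than in EV in the 3 lines that had any count (0.74, SE 0.30). *ITGAV* was at 157, 289 and 291 CPM in HCC1954, at 79.2, 122 and 133 CPM in OVCAR8, at 174, 167 and 198 CPM in SKOV3 and at 92.9, 83.2 and 79.5 CPM in MDA-MB-231. Its log2 fold change over EV was 0.38 (SE 0.17), with 3 of 4 lines higher.

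In *SIVA-WT* vs EV, the smallest p belonged to *LAMA2* (log2 fold change -0.55, SE 0.25), followed by *ITGA4* (0.68, SE 0.31), *LAMB3* (-0.26, SE 0.12), *ITGB3* (0.55, SE 0.28) and *ITGA1* (0.27, SE 0.14), all at an FDR of 0.9995. *LAMA2* was at 2.28, 1.19 and 1.31 CPM in MDA-MB-231, at 1.33, 0.758 and 1.42 CPM in HCC1954, at 0.983, 1.15 and 1.62 CPM in OVCAR8 and at 1.32, 0.939 and 0.958 CPM in SKOV3, lower with *SIVA-WT* than in EV in 3 of 4 lines. *ITGB3*, the beta partner of alphaV in osteoclasts, was at 3.16, 4.22 and 2.57 CPM in MDA-MB-231, at 2.83, 8.18 and 3.57 CPM in HCC1954, at 0.382, 0.419 and 0.860 CPM in OVCAR8 and at 17.1, 16.3 and 15.5 CPM in SKOV3. The *SIVA-WT* library of HCC1954 was the high one of its line. *ITGA1* was at 13.9, 13.4 and 11.9 CPM in MDA-MB-231, at 6.63, 7.65 and 6.09 CPM in HCC1954 and at 5.71, 8.46 and 7.95 CPM in OVCAR8, with SKOV3 as given above. *LAMB3* was lower with *SIVA-WT* than in EV in 4 of 4 lines.

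In *SIVA-D160N* vs *SIVA-WT*, *ITGB7* (-0.77, SE 0.41, FDR = 0.653) and *ITGB3* (-0.50, SE 0.28, FDR = 0.668) came after *ITGA2B*, *LAMB2* and *ITGAX*. *ITGB7* was at 1.05, 2.02 and 1.16 CPM in HCC1954 and at 0.845, 0.447 and 0.147 CPM in SKOV3. It was at 0.109, 0.183 and 0.182 CPM in OVCAR8 and at 0.0442, 0.0505 and 0.0728 CPM in MDA-MB-231, which is 7 counts or fewer in each of these libraries.

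Of the laminin chains, 2 of 11 tested had a log2 fold change above 0 in *SIVA-D160N* vs EV (median -0.16), and of the integrins 11 of 22 (median 0.01). Over all genes tested it was 8200 of 17211 (median -0.01). By role, the medians were -0.16 for the alpha and -0.22 for the beta chains of laminin, 0.04 for the alpha subunits of receptors that bind the RGD motif (*ITGA5*, *ITGAV* and *ITGA2B* tested), -0.17 for the laminin receptor subunits, -0.07 for the collagen receptor alpha subunits, 0.11 for the alphaV partners and -0.42 for the leukocyte subunits. *LAMC1* had a log2 fold change of -0.01 (SE 0.09) and *LAMC3* of -0.20 (SE 0.15). *ITGB1* had one of 0.23 (FDR = 0.392), and *ITGA4*, given above, was tested while *ITGA9* was not. In *SIVA-WT* vs EV, with the same EV libraries, 3 laminin chains (median -0.14) and 13 integrins (median 0.07) were above 0. Between the transfectants it was 5 laminin chains (median -0.03) and 7 integrins (median -0.07). Over all 17211 genes it was 8274 and 8426 in the same order.

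The *SIVA-D160N* vs EV difference was also compared between the breast and the ovarian lines, as an interaction. At an FDR under 0.05 there were 0 of 33 members and 3 of 17211 genes (0.0174%), and limma-voom called 0 members as well. At an unadjusted p under 0.05 there were 3 members, against 5.9% of all genes. They were *ITGA1* (ovarian minus breast 0.70, SE 0.22, FDR = 0.735), *ITGA4* (-1.19, SE 0.48, FDR = 0.821) and *ITGA7* (-0.94, SE 0.40, FDR = 0.825).

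**Figure D4:**
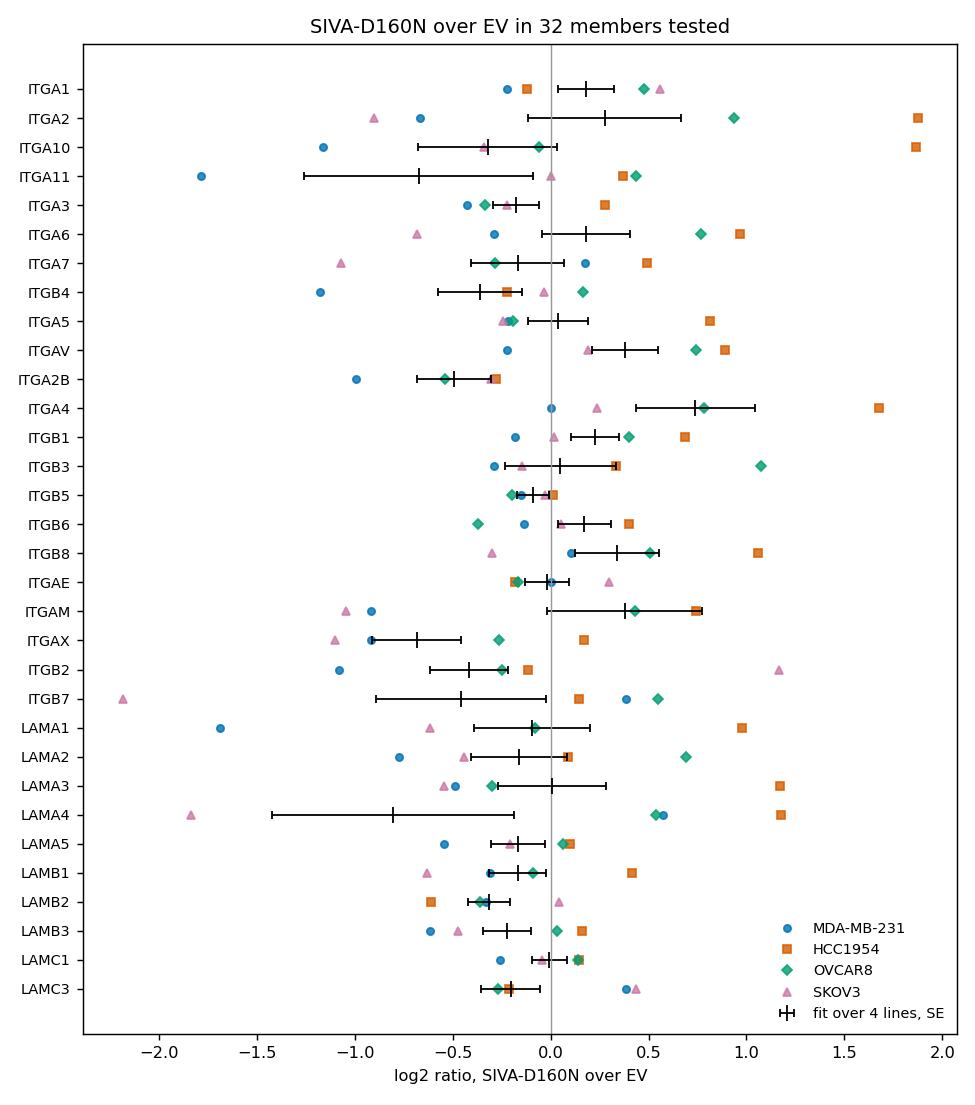
Log2 ratio of *SIVA-D160N* over EV (horizontal axis) for members tested, with 1 point per cell line and the fit over the 4 lines as a black bar with its SE. *ITGA10* lies at 1.87 in HCC1954, and *ITGB7* at -2.18 in SKOV3, where it had 32 and 6 counts.

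Within single lines, 1 library stands against 1 and no test was possible. Counted were members with a mean of at least 1 CPM in the line. In HCC1954, *SIVA-D160N* was at least 2-fold above EV in 6 of 29 members, among them *ITGA2*, *ITGA4*, *ITGA10*, *ITGB8* and *LAMA3*, and below in *ITGAL*, against 7.68% of all genes in either direction. *SIVA-WT* was at least 2-fold above EV in 4 members, among them *ITGA4*, *ITGA10* and *ITGB3* (1.74% of all genes). Both comparisons rest on the EV library with 0 counts of *SIVA1*. *SIVA-D160N* was at least 2-fold above *SIVA-WT* in 2 members, *ITGA2* among them, and below in *ITGB3* (6.45% of all genes), without that library.

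In HCC1954 *ITGA2* was 3.67-fold above EV and 2.94-fold above *SIVA-WT* in the *SIVA-D160N* library. *LAMA3* was 2.26-fold above EV, and *LAMB3* 1.12-fold. In the EV, *SIVA-WT* and *SIVA-D160N* libraries *VIM*, a mesenchymal marker, was at 94.6, 159 and 288 CPM, *MUC16* at 65.4, 74.8 and 114 CPM and *PECAM1* at 62.1, 59.5 and 32.3 CPM, and their part in these differences was not tested.

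In MDA-MB-231, in *SIVA-D160N* vs EV, 4 of 24 members were at least 2-fold lower, among them *ITGA10*, *ITGB2* and *ITGB4*, and *LAMB4* was higher, at 34 and 93 counts (4.12% of all genes). In *SIVA-WT* vs EV 1 member was past 2-fold (1.48%), and *ITGB4* was between the transfectants (1.01%). The median member of MDA-MB-231 had a log2 ratio of -0.32 in *SIVA-D160N* vs EV and that of HCC1954 0.28, against -0.01 over all genes in both. In *SIVA-WT* vs EV these medians were -0.21 and 0.31, against -0.02 over all genes in both. Between the transfectants they were -0.14 and 0.01, against 0.01 over all genes in both. The HCC1954 medians against EV rest on the EV library with 0 counts of *SIVA1*.

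OVCAR8 had 0 of 26 members past 2-fold in *SIVA-D160N* vs EV (0.832% of all genes), for *SIVA-WT* over EV (0.547%) and between the transfectants (0.19%). In SKOV3, *ITGAX* was at least 2-fold lower in *SIVA-D160N* than in EV (5.16% of all genes), *LAMA3* was 2.06-fold lower in *SIVA-WT* than in EV (2.85%), and 0 of 24 members were past 2-fold between the transfectants (0.783%).

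**Figure D5:**
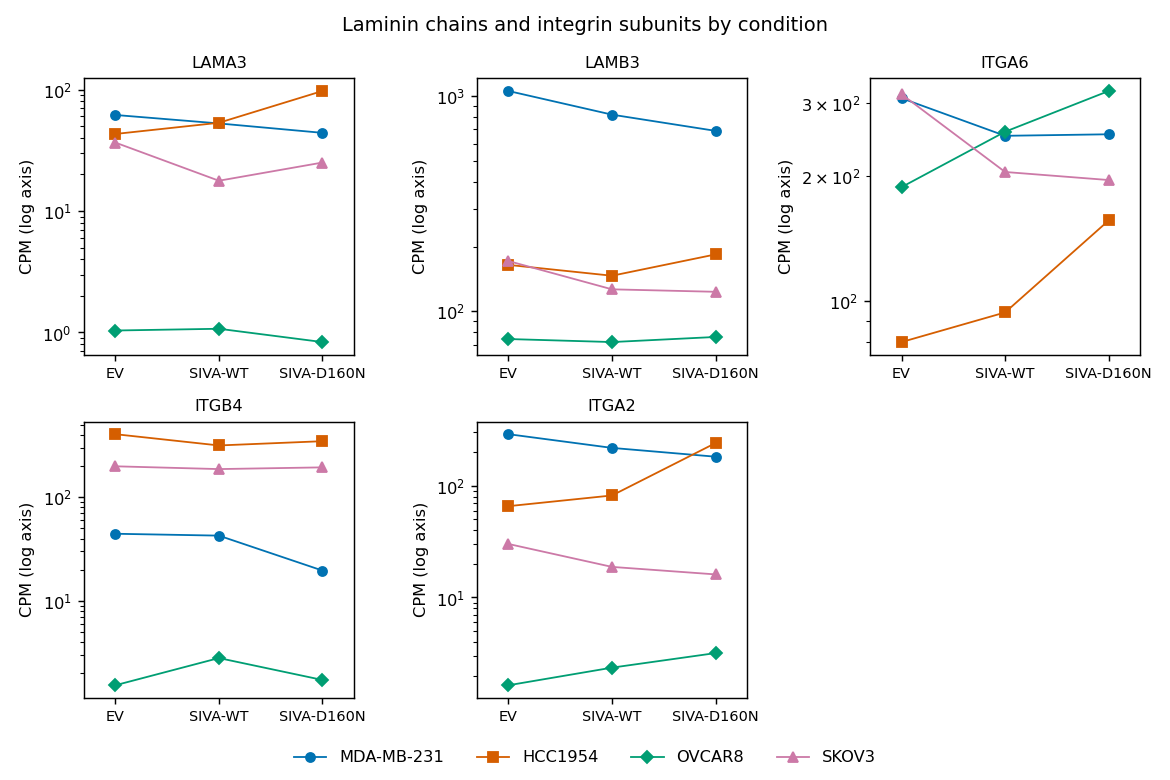
Level (CPM, log axis) of *LAMA3*, *LAMB3*, *ITGA6*, *ITGB4* and *ITGA2* in the EV, *SIVA-WT* and *SIVA-D160N* library of each cell line, with a line joining the 3 libraries of a cell line. *ITGA2* goes from 65.7 to 241 CPM in HCC1954 and from 289 to 182 CPM in MDA-MB-231, with 1 library behind each point.

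Genes that act with the integrins and laminins were counted as well. Adhesion adaptors link integrin tails to actin and to kinases. Of 32 such genes 31 were tested, and 0 passed the thresholds in any condition comparison. At an unadjusted p under 0.05, 7 were higher and 1 lower in *SIVA-D160N* vs EV (1206 higher and 1615 lower of all 17211 genes), 0 for *SIVA-WT* over EV (325 and 270), and 1 higher and 1 lower between the transfectants (489 and 945). The smallest p values in *SIVA-D160N* vs EV were those of *BCAR1*, a scaffold of focal adhesions (0.29, SE 0.10, FDR = 0.201), *TNS4*, a tensin (-0.58, SE 0.23, FDR = 0.225), and *ACTN4*, an actin crosslinker (0.29, SE 0.11, FDR = 0.240).

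Of 14 partners of the basement membrane and the hemidesmosome, all were tested and 0 passed in any condition comparison. The smallest p values in *SIVA-D160N* vs EV were those of *BCAM*, a receptor for *LAMA5* laminins (-0.51, SE 0.15, FDR = 0.152), *COL4A1*, a collagen IV chain (0.39, SE 0.15, FDR = 0.248), and *HSPG2*, perlecan (0.42, SE 0.18, FDR = 0.291). *COL4A1* and *HSPG2* also had the smallest p values in *SIVA-WT* vs EV (0.42, SE 0.15, and 0.47, SE 0.18, both at an FDR of 0.9995). Among the 4 lines, 30 of the 31 adaptors and all 14 partners differed, to be read against the same 94.7% of all genes.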

How the data were processed

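RNA from 12 libraries was sequenced after a stranded mRNA preparation. The authors aligned reads to GRCh38 with STAR 2.5.3a, per the labels, and deposited raw gene counts without normalization. A CPM table the authors also deposited was not used here. The annotation release and the strand setting of the counting are not given in the sources used here.

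The quasi-likelihood fit was that of edgeR 4.0.16 under R 4.3.3 (glmQLFit with legacy=FALSE, glmQLFTest, TMM, filterByExpr), with terms for line and condition, and p-values were adjusted over all genes tested, 17211 for conditions and 19204 for lines. CPM used TMM library sizes, and log2 CPM a prior count of 2. DESeq2 1.42.0, limma 3.58.1 (voom), other normalization, filters and thresholds and left-out libraries were alternatives. The fit was also run on data simulated with its own estimates of spread, and the outcome is not reported here. Levels per kilobase used the coding length of the canonical transcript in a GENCODE annotation, found for 38 of 38 members. The p-values measure the spread between these libraries.

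The replicate number is the cell line, the replicate block of the main fit. Deviations from condition means correlated at 0.929 to 0.968 between libraries of a line and at -0.432 to -0.192 between lines. Subtracting the mean of the lines within a condition by itself pushes the values between lines below zero.

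Values in every library are given for the 5 members with the smallest p in each condition comparison, the 12 with the widest span of line means and the 5 with the highest mean CPM. Others were named to account for every member, after their values were seen. Some results are not reported here. The members and lists were chosen with earlier results of these data known. Plots came from matplotlib 3.10.9 (Python 3.11.15).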

Additional observations from a re-analysis of the deposited data

Results flagged for a closer look

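For each of 23 named members, the levels of the 4 lines were compared within a condition, and a line was marked where its gap to the nearest line took up most of the whole range (Dixon's test). Log2 ratios between conditions were compared over the 4 lines in the same way, for the members with the smallest p. Of 84 groups of 4 values, 69 were of levels and 15 of log2 ratios, and 9 were marked, all of levels. The test marks about 1 in 20 groups by chance, but 11 of these members were chosen for the width of their line means, so the number of marks is a description. The marks follow the differences between lines given above.

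*LAMA1* in OVCAR8 was marked in all 3 conditions, at log2 CPM of 7.77 in EV, 7.87 in *SIVA-WT* and 7.69 in *SIVA-D160N*, with the other lines at -1.73 or below. *ITGAL* in HCC1954 was marked in all 3 as well, at 3.53, 3.13 and 2.36, with the other lines at -3.11 or below.

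In the EV libraries alone, *LAMA3* (0.12) and *LAMA5* (5.37) were marked as low in OVCAR8, and *ITGAX* as low in HCC1954 (-2.79). In HCC1954 *ITGAX* was also low in the transfectants, at -1.73 with *SIVA-WT* and -2.62 with *SIVA-D160N*, without a mark. The HCC1954 EV library had 0 counts of *SIVA1*, and its part in the *ITGAX* value was not tested.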

How the results depend on the processing

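The counts of members called in the 3 condition comparisons and in the interaction were 0 in all 49 alternatives. These include the fits with no replicate block (0 in each condition comparison), without each line in turn (0 to 0) and without the HCC1954 EV library. All 179 alternatives for 15 log2 fold changes of named members kept their direction and their side of the threshold. Among the 4 lines, 32 to 35 members differed. With 1.5 or more on the log2 scale also asked, a stricter rule by construction, 17 members differed between SKOV3 and MDA-MB-231 in place of 26, and 16 between SKOV3 and HCC1954 in place of 25. Per kilobase of the longest transcript, the share of *LAMB3* in MDA-MB-231 was 84.1%, and of *LAMB1* in OVCAR8 37.9%. All genes called in *SIVA-D160N* vs EV, 32 in the main fit, were 1 with the legacy quasi-likelihood fit, 12 with DESeq2, 109 with the filter by line, 152 with all genes that had a count, 8 without MDA-MB-231, 8 without HCC1954, 108 without OVCAR8 and 0 with no replicate block, and the cause was not tested. In *SIVA-WT* vs EV, 1 in the main fit, they were 0 to 4. In *SIVA-D160N* vs *SIVA-WT*, 0 in the main fit, they were 3 with DESeq2, 8 without SKOV3 and 40 with all genes that had a count. Depth limits the 8 members under 100 counts in each library.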
